A study of Mus musculus with 35 samples.

Results

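The integrin genes of cardiac fibroblasts are described here as a set of 10 genes, Itga1, Itga2, Itga3, Itga5, Itga8, Itga11 and Itgav for α subunits and Itgb1, Itgb3 and Itgb5 for β subunits. They were taken by symbol from the 55487 genes of each table, and each symbol was found once in all 4 tables. Transcript levels were measured by RNA-Seq in 27 libraries of cardiac fibroblasts (CFs) from adult mice of 8 weeks and in 8 mouse hearts. CFs were transfected with a control siRNA (si-NC) or with 1 of 2 siRNAs against IAMP (si-IAMP-1 and si-IAMP-2). IAMP is a micropeptide, and its mouse gene is 4930523C07Rik.

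The CF libraries form 9 groups of 3, since each of the 3 siRNAs was used in untreated cells, in cells given IL-17 and in cells given TGF-β. For the IL-17 cells the labels give 24 h of siRNA and then 24 h of IL-17, and no times were found for the other CFs. The cells were primary, came from enzyme-digested adult hearts, had been kept because they adhered to collagen-coated plates, and are described by the study as mainly, not purely, CFs. The hearts came from C57BL/6 mice of 8 weeks, 4 heterozygous (Het) and 4 knockout (KO) for IAMP, and every heart therefore carried at least 1 edited allele. The KO allele is a CRISPR frameshift. Nothing in the labels says whether replicate libraries were separate cultures, so p values measure the spread between these libraries, which may be technical.

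Integrins are heterodimers of 1 α and 1 β subunit that span the plasma membrane, bind matrix proteins outside the cell and couple to actin through adapter proteins inside it. The product of Itgb1 pairs with the products of many α genes, among them Itga1, Itga2 and Itga11 (collagen receptors), Itga3 (a laminin receptor), Itga5 (the classical fibronectin receptor) and Itga8 (a receptor for nephronectin and other RGD proteins). The product of Itgav pairs with several β subunits, Itgb1, Itgb3 and Itgb5 included, binds vitronectin and fibronectin, and is known for activating latent TGF-β. In fibroblasts these receptors anchor the cell to collagen and fibronectin and sense the stiffness of the matrix.

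CF libraries held 104139670 to 119232309 estimated counts and hearts 23497027 to 23857313 counts. Genes read in a single CF library most often held 6 estimated counts there, taken as 1 read pair. The targeted gene fell with both siRNAs in every CF table, from 16.8 to 25.7 CPM (counts scaled to the size of each library) in si-NC to 2.37 to 4.58 CPM with si-IAMP-1 and 1.68 to 3.72 CPM with si-IAMP-2. In hearts it stood at 15.9 to 18.8 CPM in Het and 15.2 to 17.3 CPM in KO, and a frameshift need not lower the transcript. The 7 fibroblast markers were all above the floor of 3 read pairs and summed to 5263 to 9203 CPM in CFs. Of 7 cardiomyocyte markers, Myh6 was at or under the floor in all 9 CF groups, and Actn2 and Myl2 in 8 and 7 of them. Summed leukocyte and endothelial markers stood at 54.7 to 83.2 and 55.8 to 73.6 CPM in untreated and IL-17 cells, and at 126 to 165 and 115 to 128 CPM in TGF-β cells. In bulk RNA, fewer cells of a type and less RNA per cell cannot be told apart.

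In GRCm38 (GENCODE vM21) the members are spread over 7 chromosomes and all are protein coding. On chromosome 8, Itgb1 runs from 128685654 to 128733200 on the plus strand. The RefSeq start of Itga11 is 29 bases inside its GENCODE start. Itga11 lies on chromosome 9 from 62677826 to 62783982 and Itgb5 on chromosome 16 from 33829665 to 33949338, both on the plus strand. Itga2 (114833081 to 114932100) and Itga1 (114953096 to 115101964) are neighbours on the minus strand of chromosome 13. Itga3 (95044474 to 95076801, minus strand) and Itgb3 (104608000 to 104670476, plus strand) are both on chromosome 11. Itga8 (12106632 to 12301922, minus strand) and Itgav (83724397 to 83806916, plus strand) are on chromosome 2, and Itga5 lies on chromosome 15 from 103344286 to 103366763 on the minus strand. Pelo, Gm49395 and Gm10734 lie within or across Itga1, so reads of these genes may be split and its level is uncertain. E030013I19Rik and Gm37701 overlap Itga8, Dnmt3l-ps1 and Gm13684 overlap Itgav, and Mir6963 overlaps Itga5, with the same limit, since the strand setting of the counting is not stated.

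The 250 bases before the transcription start are shown for 4 members as examples of the patterns described further on: Itgb1, which moved in opposite directions with the 2 siRNAs, Itga2, which rose with si-IAMP-2, and Itga11 and Itgb5, which were higher in the TGF-β table. Sequences are from RefSeq (GRCm38.p6), on the gene's own strand and 5′ to 3′. Capitals mark matches, on either strand, to CAGAC (the Smad box), TGANTCA (AP-1), GGGCGG (the GC box) and GGAATG (TEAD), none of which overlapped in these windows. A match is a string of letters and not a bound site.
Itgb1 (chr8:128685404-128685653, plus strand): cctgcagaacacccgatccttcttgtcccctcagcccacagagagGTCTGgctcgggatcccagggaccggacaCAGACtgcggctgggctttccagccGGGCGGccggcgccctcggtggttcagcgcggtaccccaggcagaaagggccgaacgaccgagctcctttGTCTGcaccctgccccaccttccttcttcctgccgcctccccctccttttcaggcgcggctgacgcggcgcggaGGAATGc
Itga2 (chr13:114932101-114932350, minus strand): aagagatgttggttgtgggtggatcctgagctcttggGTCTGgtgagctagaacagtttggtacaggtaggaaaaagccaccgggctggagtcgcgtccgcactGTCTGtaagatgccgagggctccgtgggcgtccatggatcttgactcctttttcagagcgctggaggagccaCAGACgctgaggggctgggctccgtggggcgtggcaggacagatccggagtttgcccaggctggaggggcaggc
Itga11 (chr9:62677605-62677854, plus strand): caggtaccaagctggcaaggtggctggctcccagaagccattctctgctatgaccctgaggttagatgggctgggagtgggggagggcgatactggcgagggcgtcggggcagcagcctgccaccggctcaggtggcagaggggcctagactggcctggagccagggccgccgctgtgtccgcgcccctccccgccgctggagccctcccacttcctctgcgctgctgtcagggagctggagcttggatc
Itgb5 (chr16:33829415-33829664, plus strand): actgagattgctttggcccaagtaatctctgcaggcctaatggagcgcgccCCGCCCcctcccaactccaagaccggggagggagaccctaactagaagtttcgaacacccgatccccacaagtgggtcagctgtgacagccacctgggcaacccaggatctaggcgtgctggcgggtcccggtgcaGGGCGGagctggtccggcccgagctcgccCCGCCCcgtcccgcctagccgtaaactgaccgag

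Windows were found for 9 of the 10 members, all but Itgb3. The Smad box was in 4 of the 9 windows, Itga1, Itga2, Itga3 and Itgb1, while 42.2% of all 32851 windows of this length in the table held it. Itgb1 and Itga2 each held 3 matches, 205, 176 and 81 bases before the start of Itgb1 and 213, 146 and 74 bases before that of Itga2. In the windows of Itga11 and Itgb5 the letters of the Smad box did not occur. GC boxes were in 4 of the 9 (Itga3, Itga5, Itgb1 and Itgb5) against 32.7% of all windows, with 3 each in Itga3 and Itgb5. TEAD letters stood 7 bases before the start of Itgb1 only, against 12.6% of all windows, and AP-1 letters in none of the 9, against 6.75%.

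Per kilobase of merged exons, the scale on which genes can be compared with each other, Itgb1 stood highest in untreated si-NC cells at 430 ± 7.89 CPM per kb (SD, n = 3). Itgb5 followed at 133 ± 9.03, then Itga5 at 105 ± 3.06, Itgav at 52.3 ± 3.42 and Itgb3 at 19.9 ± 1.36 CPM per kb. The remaining members were each under 8 CPM per kb: Itga3 at 7.13 ± 0.502, Itga11 at 3.45 ± 0.139, Itga1 at 3.40 ± 0.0782, Itga8 at 1.73 ± 0.104 and Itga2 at 0.606 ± 0.0204. Among neighbours in this order the libraries of Itga11 and Itga1 alone overlapped, and these 2 changed places when the longest transcript was used as the length, since the merged exons of Itga1 (18599 bases) far exceed its longest transcript (10967 bases).

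In the TGF-β si-NC cells the order differed. Itgb5 stood first at 438 ± 23.9 CPM per kb, above Itgb1 at 277 ± 5.25, and Itga11 came next after Itga5 (67.2 ± 2.05) at 27.4 ± 1.71, above Itgav at 17.5 ± 1.82. Itga8 came last at 0.246 ± 0.0356 CPM per kb. In IL-17 si-NC cells Itga5 (118 ± 2.12) stood above Itgb5 (112 ± 1.51), and Itga2 (1.45 ± 0.129) and Itga8 (1.26 ± 0.115) overlapped at the bottom. Het hearts kept Itgb1 (55.7 ± 1.70, n = 4), Itgb5 (22.4 ± 0.748) and Itga5 (17.1 ± 3.23) on top, and Itgav stood there at 1.01 ± 0.104 CPM per kb. The heart and CF tables were scaled separately, so levels are compared within each.

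**Figure D1:**
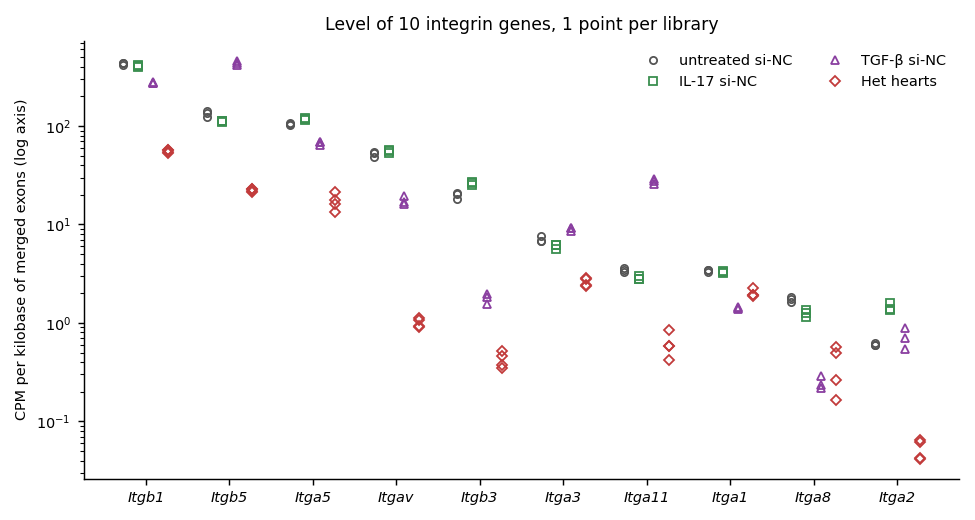
Level of the 10 integrin genes in si-NC fibroblasts and Het hearts, in CPM per kilobase of merged exons on a log axis, 1 point per library. Itgb1 leads in untreated and IL-17 cells and in hearts, while Itgb5 leads in TGF-β cells, where Itga11 is high and Itgb3 and Itga8 are low.

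How the IAMP siRNAs changed the integrin genes of untreated CFs was asked first. Itga1, Itga3 and Itga8 fell with both siRNAs, Itga5 and Itgb5 rose with both, and Itgb1, Itga11 and Itgav rose with si-IAMP-1 and fell with si-IAMP-2. Itgb3 did the reverse, and Itga2 was called with si-IAMP-2 only. With si-IAMP-1, 5 members were higher and 4 lower in edgeR (adjusted p up to 0.05), where the shares of all genes tested were 19.5% and 20.4%. With si-IAMP-2, 4 were higher and 6 lower, against 24.4% and 25% of all genes. At the study's threshold for untreated cells, a log2 fold change of at least 1 in either direction, 0 members passed with si-IAMP-1 (4.76% of all genes) and 3 with si-IAMP-2 (10.7%). When 1 library was left out, 2 to 3 passed with si-IAMP-2. Within a table both siRNAs are set against the same si-NC libraries. Adjusted p values are from edgeR's quasi-likelihood test over all genes. Errors of log2 fold changes are standard errors, calculated back as the absolute log2 fold change over the square root of that test's F value.

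Itgb1, the common β subunit, had 1763, 1784 and 1721 CPM in si-NC, 2687, 2640 and 2681 CPM with si-IAMP-1, and 1012, 1013 and 1027 CPM with si-IAMP-2. The 3 groups did not overlap. It was 1.51-fold higher with si-IAMP-1 (log2 fold change 0.60 ± 0.026, edgeR adjusted p = 2.15e-11) and 1.75-fold lower with si-IAMP-2 (-0.81 ± 0.026, edgeR adjusted p = 1.80e-13). The spread within each group was small beside either change.

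Among the collagen receptor genes, Itga1 stood at 61.6, 64.4 and 63.7 CPM in si-NC, at 42.4, 39.9 and 40.3 CPM with si-IAMP-1 and at 35.1, 41.0 and 37.2 CPM with si-IAMP-2. Both siRNA groups lay under si-NC and overlapped each other. It was 1.55-fold lower with si-IAMP-1 (edgeR adjusted p = 3.13e-08) and 1.70-fold lower with si-IAMP-2 (edgeR adjusted p = 1.52e-09). Itga2 had 4.28, 4.21 and 4.49 CPM in si-NC, 4.84, 4.24 and 4.56 CPM with si-IAMP-1, and 12.1, 13.9 and 14.3 CPM with si-IAMP-2. Only the si-IAMP-2 libraries stood apart, 3.06-fold higher than si-NC (log2 fold change 1.61 ± 0.096, edgeR adjusted p = 3.21e-10). Itga11, a collagen receptor gene of mesenchymal cells, stood at 17.8, 16.9 and 18.3 CPM, then 26.3, 24.3 and 24.3 CPM, then 12.5, 12.3 and 10.6 CPM in the same order of groups. These groups did not overlap, and it was 1.40-fold higher with si-IAMP-1 (edgeR adjusted p = 2.01e-05) and 1.52-fold lower with si-IAMP-2 (edgeR adjusted p = 1.29e-06).

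Itga8 showed the largest fall among the members. It had 13.4, 12.8 and 11.9 CPM in si-NC, 7.02, 7.21 and 8.48 CPM with si-IAMP-1, and 3.21, 3.41 and 2.88 CPM with si-IAMP-2. It was 1.69-fold lower with si-IAMP-1 (log2 fold change -0.75 ± 0.097, edgeR adjusted p = 7.83e-06) and 4.07-fold lower with si-IAMP-2 (-2.03 ± 0.10, edgeR adjusted p = 3.99e-11). Itga3, the laminin receptor gene, stood at 44.0, 39.2 and 39.0 CPM in si-NC, at 30.7, 27.6 and 31.5 CPM with si-IAMP-1 and at 21.2, 19.1 and 21.1 CPM with si-IAMP-2. Its groups did not overlap either, with falls of 1.37-fold (edgeR adjusted p = 2.98e-05) and 2.02-fold (edgeR adjusted p = 1.18e-09). Itga8 and Itga1 are also genes of smooth muscle. The 7 mural cell markers summed to 105 to 118.6 CPM in si-NC, 68.8 to 74.6 CPM with si-IAMP-1 and 55.1 to 67.5 CPM with si-IAMP-2, with Kcnj8 at or under the floor, and their part in the falls was not tested. The cardiomyocyte markers summed to 90.5 to 98.3, 42.5 to 47.5 and 28.3 to 33.4 CPM in the same order, and Actn2, Myh6 and Myl2 were at or under the floor in all 3 groups. Of the 4 cardiomyocyte markers tested, 0 were higher and 1 lower with si-IAMP-1, and 0 and 2 with si-IAMP-2. Of the 7 mural markers 1 was higher and 2 lower with si-IAMP-1, and 0 and 3 with si-IAMP-2. Fibroblast markers summed to 5346 to 5552, 6574 to 6804 and 5263 to 5360 CPM in the same order. Leukocyte markers summed to 55.4 to 59.1, 57.0 to 60.3 and 73.4 to 76.6 CPM. Endothelial markers summed to 68.8 to 73.6, 62.1 to 66.7 and 70.9 to 73.0 CPM. Of 7 each, 3 fibroblast, 1 leukocyte and 0 endothelial markers were higher with si-IAMP-1, and 2, 0 and 2 lower. With si-IAMP-2, 2, 2 and 1 were higher and 3, 1 and 3 lower. The shares of all genes were 19.5% higher and 20.4% lower with si-IAMP-1, and 24.4% and 25% with si-IAMP-2.

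Of the fibronectin and vitronectin receptor genes, Itga5 and Itgb5 rose with both siRNAs. Itga5 had 533, 522 and 503 CPM in si-NC, 751, 730 and 723 CPM with si-IAMP-1, and 573, 616 and 583 CPM with si-IAMP-2. It was 1.41-fold higher with si-IAMP-1 (edgeR adjusted p = 1.75e-09) and 1.12-fold higher with si-IAMP-2 (edgeR adjusted p = 0.000252). Itgb5, which pairs with the Itgav product, rose from 440 to 504 CPM in si-NC to 578 to 607 CPM with si-IAMP-1 and 569 to 603 CPM with si-IAMP-2, that is 1.25-fold and 1.21-fold. Itgav stood at 519 to 587 CPM in si-NC, 610 to 615 CPM with si-IAMP-1 and 477 to 504 CPM with si-IAMP-2, without overlap. It was 1.09-fold higher with si-IAMP-1 (edgeR adjusted p = 0.0191) and 1.16-fold lower with si-IAMP-2 (edgeR adjusted p = 0.000108). The first of these calls was lost without si-NC replicate 3 (edgeR adjusted p = 0.0875, log2 fold change 0.07 in place of 0.12) and without si-IAMP-1 replicate 3 (edgeR adjusted p = 0.0559). Itgb3, the β subunit best known from platelets, had 108 to 122 CPM in si-NC, 98.2 to 102 CPM with si-IAMP-1 and 125 to 133 CPM with si-IAMP-2. It was 1.17-fold lower with si-IAMP-1 (edgeR adjusted p = 0.000259) and 1.09-fold higher with si-IAMP-2 (edgeR adjusted p = 0.0259). Its rise was not called without si-NC replicate 3 (edgeR adjusted p = 0.160, log2 fold change 0.06 in place of 0.12), si-IAMP-2 replicate 1 (0.0848) or si-IAMP-2 replicate 2 (0.0892).

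**Figure D2:**
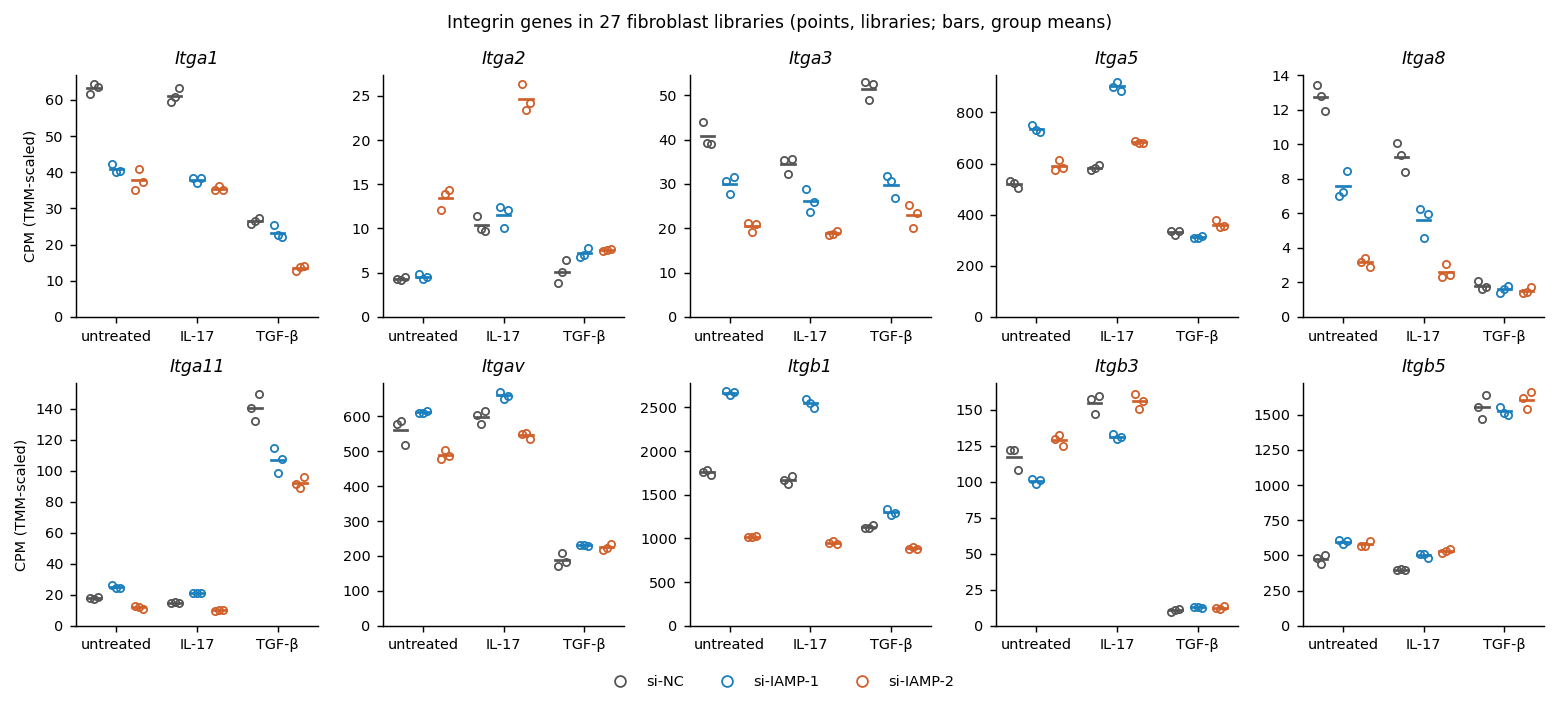
TMM-scaled CPM (linear axes from 0) of each integrin gene in the 27 fibroblast libraries, by table and siRNA, with points for libraries and bars for group means of 3. Itgb1 is above si-NC with si-IAMP-1 and under it with si-IAMP-2 in all 3 tables, and Itga11 and Itgb5 are highest in TGF-β cells.

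IL-17 is an inflammatory cytokine, and the same comparison was made in cells given it. The 10 genes moved much as in untreated cells, with Itgb1, Itga11 and Itgav higher with si-IAMP-1 and lower with si-IAMP-2, and Itga1, Itga3 and Itga8 lower with both. With si-IAMP-1, 5 members were higher and 4 lower (20.3% and 21.9% of all genes), and with si-IAMP-2, 3 were higher and 6 lower (25% and 25.6%). The study's threshold here was 1.5-fold, a log2 fold change of 0.585. Under it 4 members passed with si-IAMP-1 (13.5% of all genes) and 6 with si-IAMP-2 (21.7%). These counts were 3 to 4 and 5 to 6 when 1 library was left out.

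Itgb1 had 1672, 1629 and 1720 CPM in IL-17 si-NC cells, 2599, 2552 and 2497 CPM with si-IAMP-1, and 943, 965 and 940 CPM with si-IAMP-2. The groups did not overlap, at 1.51-fold higher (edgeR adjusted p = 1.06e-11) and 1.79-fold lower (edgeR adjusted p = 5.66e-14). Itga2 stood at 11.4, 9.94 and 9.69 CPM in si-NC and at 12.4, 10.0 and 12.1 CPM with si-IAMP-1, which overlapped (edgeR adjusted p = 0.221, but 0.0423 without si-IAMP-1 replicate 2). With si-IAMP-2 it had 26.3, 23.4 and 24.1 CPM, 2.35-fold higher than si-NC (edgeR adjusted p = 1.96e-09). Itga5 rose from 573 to 594 CPM in si-NC to 885 to 918 CPM with si-IAMP-1, 1.53-fold (edgeR adjusted p = 6.62e-12), and to 682 to 687 CPM with si-IAMP-2, 1.16-fold (edgeR adjusted p = 2.73e-06).

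Itga8 fell from 8.38 to 10.1 CPM in si-NC to 4.58 to 6.25 CPM with si-IAMP-1, 1.67-fold (edgeR adjusted p = 0.000164), and to 2.32 to 3.09 CPM with si-IAMP-2, 3.60-fold (edgeR adjusted p = 3.07e-09). Itga1 was 1.62-fold and 1.75-fold lower, Itga3 1.33-fold and 1.85-fold lower with si-IAMP-1 and si-IAMP-2, and all 4 falls were called. Itga11 was 1.42-fold higher with the first and 1.51-fold lower with the second, again without overlap. Itgb5 rose 1.25-fold and 1.32-fold. Itgb3 was 1.19-fold lower with si-IAMP-1 (edgeR adjusted p = 2.39e-05), while its si-IAMP-2 libraries at 150 to 161 CPM overlapped si-NC at 147 to 159 CPM (edgeR adjusted p = 0.855). Mural cell markers again summed lower with the siRNAs, 156 to 160 CPM in si-NC, 102 to 108 CPM with si-IAMP-1 and 78.0 to 84.9 CPM with si-IAMP-2. Of the 7, 0 were higher and 3 lower with si-IAMP-1, and 1 higher and 3 lower with si-IAMP-2. The shares of all genes were 20.3% higher and 21.9% lower with si-IAMP-1, and 25% and 25.6% with si-IAMP-2. Cardiomyocyte markers summed to 70.1 to 77.0, 32.5 to 36.0 and 23.5 to 26.1 CPM in the same order, with Actn2, Myh6 and Myl2 at or under the floor. Of the 4 cardiomyocyte markers tested, 1 was higher and 1 lower with si-IAMP-1, and 0 and 1 with si-IAMP-2. Fibroblast markers summed to 5445 to 5514, 6277 to 6523 and 5442 to 5536 CPM in that order. Leukocyte markers summed to 54.7 to 55.2, 63.1 to 68.4 and 74.5 to 83.2 CPM. Endothelial markers summed to 65.6 to 66.9, 55.8 to 58.8 and 66.8 to 72.0 CPM. Of 7 each, 1 fibroblast, 2 leukocyte and 0 endothelial markers were higher with si-IAMP-1, and 3, 0 and 3 lower. With si-IAMP-2, 3, 2 and 1 were higher and 4, 1 and 2 lower. The part of any of these lists in the falls of Itga1 and Itga8 was not tested.

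TGF-β drives fibroblasts toward a contractile, matrix-producing state, and in cells given it fewer members were called. With si-IAMP-1, 4 were higher and 2 lower (11.7% and 11.4% of all genes), and with si-IAMP-2, 4 were higher and 4 lower (15.1% and 14.8%). The methods state no threshold for these cells and 1.5-fold was used, which 1 member (Itga3) passed with si-IAMP-1 and 3 (Itga1, Itga3 and Itga11) with si-IAMP-2, against 4.36% and 7.51% of all genes. Without si-NC replicate 3 there were 2 with si-IAMP-1. Itga3 and Itga11 fell with both siRNAs, Itga2, Itgav and Itgb3 rose with both, and Itgb1 rose with si-IAMP-1 and fell with si-IAMP-2.

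Itga3 had 53.0, 48.9 and 52.5 CPM in si-NC, 31.7, 30.8 and 26.7 CPM with si-IAMP-1, and 25.3, 20.02 and 23.5 CPM with si-IAMP-2. It was 1.73-fold lower (edgeR adjusted p = 2.01e-06) and 2.24-fold lower (edgeR adjusted p = 1.79e-08), the largest fall among the members with each siRNA. Itga11 stood at 140, 132 and 149 CPM in si-NC, at 115, 98.4 and 107 CPM with si-IAMP-1 and at 91.1, 89.0 and 96.0 CPM with si-IAMP-2. It was 1.31-fold lower (edgeR adjusted p = 7.58e-05) and 1.52-fold lower (edgeR adjusted p = 5.58e-07), so the direction with si-IAMP-1 was opposite to that in untreated and IL-17 cells. Itgb1 had 1118, 1120 and 1156 CPM in si-NC, 1337, 1272 and 1292 CPM with si-IAMP-1, and 883, 897 and 881 CPM with si-IAMP-2, 1.15-fold higher (edgeR adjusted p = 0.000140) and 1.27-fold lower (edgeR adjusted p = 2.01e-07). Its directions matched the other tables and its shifts were smaller.

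Itga1 stood at 25.7, 26.5 and 27.3 CPM in si-NC and at 12.8, 13.9 and 14.1 CPM with si-IAMP-2, 1.95-fold lower (edgeR adjusted p = 7.69e-09). With si-IAMP-1 it had 25.4, 22.6 and 22.0 CPM, under si-NC in every library but not called (edgeR adjusted p = 0.0533, but 0.0209 without si-IAMP-1 replicate 1, 0.0468 without si-IAMP-2 replicate 1 and 0.0443 in DESeq2). Itgav rose from 172 to 210 CPM to 229 to 233 CPM and 218 to 233 CPM, 1.23-fold and 1.19-fold. Itgb5 did not pass the test with either siRNA, at 1470 to 1640 CPM in si-NC, 1501 to 1553 CPM with si-IAMP-1 and 1544 to 1661 CPM with si-IAMP-2. Itga8 was read at only 145 to 231 estimated counts per library in these cells, and its groups overlapped (edgeR adjusted p = 0.587 and 0.372).

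Itga2, Itgb3 and Itga5 gave calls in TGF-β cells that were marginal, except that of Itga2 with si-IAMP-2, and were lost when 1 of several libraries was left out. Itga2 had 3.86, 5.03 and 6.40 CPM in si-NC, 6.75, 7.02 and 7.83 CPM with si-IAMP-1 (edgeR adjusted p = 0.0136) and 7.45, 7.60 and 7.73 CPM with si-IAMP-2 (edgeR adjusted p = 0.00392). The first call was lost without si-NC replicate 1 (edgeR adjusted p = 0.0635), si-NC replicate 2 (0.0508) or si-IAMP-1 replicate 3 (0.0695). The second was kept whichever library was left out (edgeR adjusted p up to 0.0215). Itgb3 rose 1.20-fold and 1.19-fold (edgeR adjusted p = 0.0323 and 0.0371). Its si-IAMP-1 call was lost without any 1 of the 3 si-IAMP-1 libraries (edgeR adjusted p = 0.104, 0.0842 and 0.0583 for replicates 1, 2 and 3), si-NC replicate 1 (0.157) or si-NC replicate 2 (0.0504). Its si-IAMP-2 call was lost without si-NC replicate 1 (edgeR adjusted p = 0.186, log2 fold change 0.17 in place of 0.25), si-NC replicate 2 (0.0596), si-IAMP-2 replicate 3 (0.172), si-IAMP-2 replicate 1 (0.0631), or si-IAMP-1 replicate 1 or 2 (0.0511 and 0.0507). Itga5 was 1.09-fold higher with si-IAMP-2 (edgeR adjusted p = 0.0121), and this was lost without si-IAMP-2 replicate 1 (0.0884) or si-NC replicate 2 (0.0528). With si-IAMP-1 it was not called (edgeR adjusted p = 0.0836), but was without si-NC replicate 2 (0.0441) and in DESeq2 (0.0436).

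**Figure D3:**
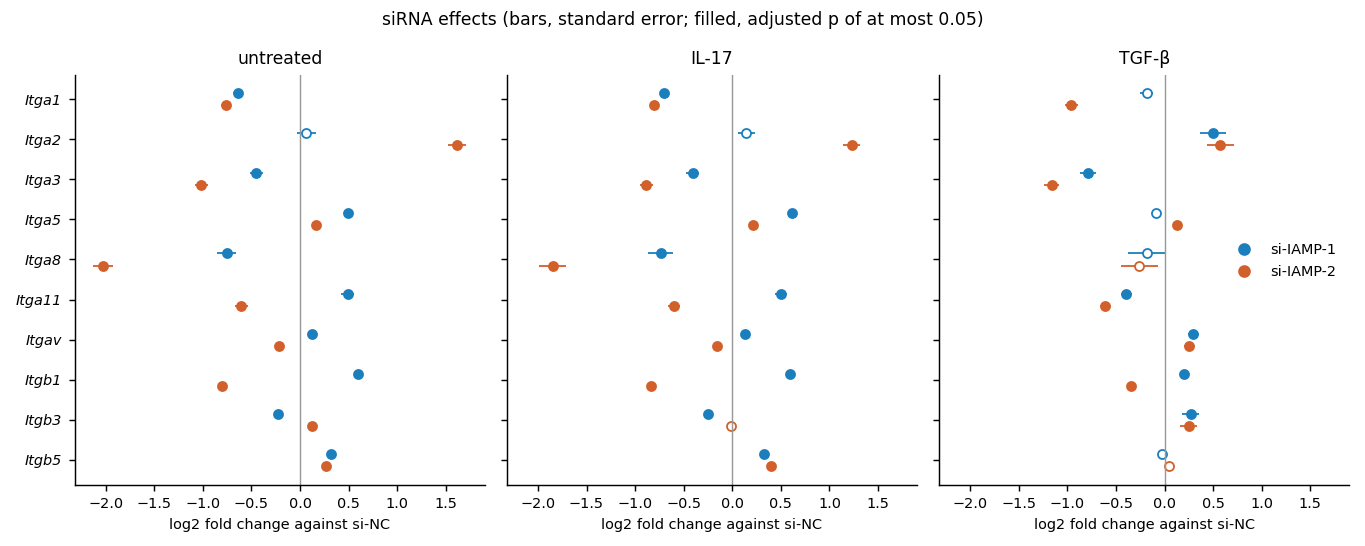
Log2 fold change of each integrin gene against si-NC of the same table, with standard errors, in untreated, IL-17 and TGF-β cells. Filled points passed an adjusted p of 0.05. Itga8 and Itga3 lie to the left with both siRNAs in untreated and IL-17 cells, Itga2 lies far to the right with si-IAMP-2 there, and the Itgb1 points lie on either side of 0 in all 3 tables.

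Next, si-IAMP-2 was set against si-IAMP-1 directly. In untreated cells 8 members differed, 2 higher and 6 lower with si-IAMP-2, where 45.5% of all genes differed in either direction. Itgb1 was 2.65-fold lower with si-IAMP-2 than with si-IAMP-1 (log2 fold change -1.41 ± 0.027, edgeR adjusted p = 5.83e-16), Itga8 2.41-fold lower, Itga11 2.13-fold lower and Itga2 2.93-fold higher. Itga1 was not called (edgeR adjusted p = 0.0522), but was without si-IAMP-2 replicate 2 (0.00793). In IL-17 cells all 10 differed, against 46.2% of all genes, with Itgb1 2.70-fold lower. Of these, Itga1 and Itgb5 were barely called (edgeR adjusted p = 0.0398 and 0.0441), and each call was lost without any 1 of 5 libraries, with adjusted p of 0.0558 to 0.0898 and 0.0703 to 0.252. The libraries were, for Itga1, si-IAMP-1 replicates 1 and 3 and si-IAMP-2 replicates 1, 2 and 3, and for Itgb5 si-NC replicates 1 and 3, si-IAMP-1 replicate 3 and si-IAMP-2 replicates 2 and 3. In TGF-β cells 5 differed, against 24% of all genes, with Itga1 1.71-fold lower with si-IAMP-2 and Itgb1 1.47-fold lower. Itga11 was 1.16-fold lower there (edgeR adjusted p = 0.00998), which was lost without si-IAMP-1 replicate 1 (0.0556). IAMP itself was lower with si-IAMP-2 than with si-IAMP-1 in all 3 tables, by 0.72, 0.58 and 0.41 on the log2 scale in untreated, IL-17 and TGF-β cells.

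What the stimuli themselves went with was read from the si-NC cells. Untreated, IL-17 and TGF-β libraries were deposited in separate tables, and stimulus and table cannot be told apart. Between IL-17 and untreated si-NC cells, 3 members were higher and 4 lower, against 6.61% and 6.96% of all genes, and 1 passed 1.5-fold, against 3.08%. That one was Itga2, at 9.69 to 11.4 CPM with IL-17 and 4.21 to 4.49 CPM without, 2.39-fold higher (log2 fold change 1.25 ± 0.091, edgeR adjusted p = 7.26e-11). Itgb3 was 1.32-fold higher and Itga5 1.12-fold higher. Itga3, Itga8, Itga11 and Itgb5 were lower by 1.19-fold to 1.37-fold. The call of Itga3 (edgeR adjusted p = 0.0136) was lost without IL-17 replicate 2 (0.0912) or untreated replicate 1 (0.119), and that of Itga8 (edgeR adjusted p = 0.00705) without IL-17 replicate 3 (0.0537). Itgb1 (edgeR adjusted p = 0.0658) and Itgav (0.0771) were not called, and were when some libraries were left out: Itgb1 without IL-17 replicate 3 (0.0246) or untreated replicate 3 (0.0481), Itgav without replicate 2 of IL-17 (0.0329) or of untreated cells (0.0182). DESeq2, the tool of the study, called both on all libraries (adjusted p = 0.0203 for Itgb1 and 0.0288 for Itgav).

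TGF-β cells differed from untreated cells far more. 3 members were higher and 6 lower, against 29.3% and 28% of all genes, and 8 passed 1.5-fold, against 34.9%. Itga11 had 17.8, 16.9 and 18.3 CPM in untreated and 140, 132 and 149 CPM in TGF-β cells, 7.91-fold higher (log2 fold change 2.98 ± 0.065, edgeR adjusted p = 8.14e-21). Itgb5 went from 479, 440 and 504 CPM to 1555, 1470 and 1640 CPM, 3.27-fold higher (1.71 ± 0.045, edgeR adjusted p = 5.84e-20). These were the 2 large rises, and Itga3 was 1.26-fold higher (edgeR adjusted p = 0.000817). Itgb3 went the other way, from 122, 122 and 108 CPM to 9.26, 10.8 and 11.5 CPM, 11.2-fold lower (-3.48 ± 0.069, edgeR adjusted p = 1.42e-21). Itga8 was 7.04-fold lower, Itgav 3.00-fold, Itga1 2.39-fold, Itga5 1.57-fold and Itgb1 1.56-fold lower. Itga2 was not called (edgeR adjusted p = 0.122, but 0.00396 without TGF-β replicate 1). Summed leukocyte markers stood at 55.4 to 59.1 CPM in untreated and 156 to 165 CPM in TGF-β si-NC cells, endothelial markers at 68.8 to 73.6 and 115 to 116 CPM, and mural cell markers at 105 to 118.6 and 68.0 to 69.6 CPM. Cardiomyocyte markers summed to 90.5 to 98.3 CPM in untreated and 5.48 to 6.34 CPM in TGF-β si-NC cells, and fibroblast markers to 5346 to 5552 and 7537 to 7784 CPM. Of 7 markers each, 5 leukocyte, 6 endothelial, 4 mural and 2 fibroblast markers were higher and 0, 1, 2 and 4 lower, and of 6 cardiomyocyte markers tested 0 were higher and 2 lower. The shares of all genes were 29.3% higher and 28% lower. The part of these markers in the integrin differences was not tested.

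Whether an siRNA effect differed with the stimulus was tested as a difference of log2 fold changes in 1 fit over both tables. Between IL-17 and untreated cells 0 members differed for either siRNA in edgeR (0 at adjusted p and 0 past 1.5-fold), where 2.13% and 1.89% of all genes differed and 0.448% and 0.485% also passed 1.5-fold. At an unadjusted p under 0.05 these were 1 and 3 members. DESeq2 called 1, Itga5 with si-IAMP-1 (difference 0.12, adjusted p = 0.0350). The largest edgeR difference was that of Itga2 with si-IAMP-2, -0.38 ± 0.12 (edgeR adjusted p = 0.18). Itgb5 with si-IAMP-2 (0.14 ± 0.055, edgeR adjusted p = 0.330) was called without untreated si-NC replicate 2 (0.0362).

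Between TGF-β and untreated cells, 8 members differed for si-IAMP-1 and 5 for si-IAMP-2, against 19.6% and 30.2% of all genes. Past 1.5-fold there were 2 and 2, against 5.61% and 11.6%. For si-IAMP-1 the 2 were Itga5 and Itga11, and the count was 1 without untreated si-IAMP-1 replicate 1 or 2 or any 1 TGF-β si-IAMP-2 library. Itga11 gave the largest difference with si-IAMP-1, from a rise in untreated to a fall in TGF-β cells (difference -0.89 ± 0.087, edgeR adjusted p = 7.72e-08). Itga5 lost its rise with si-IAMP-1 (-0.59 ± 0.050, edgeR adjusted p = 4.64e-09). Itga8 lost most of its fall with si-IAMP-2 (1.75 ± 0.18, edgeR adjusted p = 6.64e-08), with the low counts named above, and Itga2 much of its rise (-1.06 ± 0.18, edgeR adjusted p = 4.48e-05). Both Itgb1 effects were smaller in TGF-β cells, by 0.40 ± 0.039 for the rise with si-IAMP-1 (edgeR adjusted p = 4.71e-08) and by 0.44 ± 0.039 for the fall with si-IAMP-2 (edgeR adjusted p = 4.07e-09). For si-IAMP-1, Itga3 (-0.35 ± 0.11, edgeR adjusted p = 0.0310) and Itga8 (0.57 ± 0.18, edgeR adjusted p = 0.0295) were each lost without any 1 of 8 of the 18 libraries, with adjusted p of 0.0588 to 0.116 and 0.0545 to 0.0968. For Itga3 these were TGF-β si-NC replicates 1 and 3, si-IAMP-1 replicate 3 and si-IAMP-2 replicate 3, and untreated si-NC replicates 2 and 3 and si-IAMP-1 replicates 1 and 3. For Itga8 they were TGF-β si-NC replicates 2 and 3 and si-IAMP-1 replicates 2 and 3, and replicates 1 and 2 of untreated si-NC and of untreated si-IAMP-1. Calls were gained for Itga2 without TGF-β si-NC replicate 3 (edgeR adjusted p = 0.00581 in place of 0.103) and for Itgav without TGF-β si-NC replicate 2 (0.00247 in place of 0.132) or untreated si-NC replicate 3 (0.0277). With si-IAMP-2, Itga1 (-0.22, edgeR adjusted p = 0.0603) was called without TGF-β si-IAMP-1 replicate 1 (0.0409) or untreated si-IAMP-2 replicate 1 (0.0232). The knockdown of IAMP was also smaller there, by 0.73 ± 0.15 and 1.03 ± 0.16 on the log2 scale (edgeR adjusted p = 0.00113 and 1.70e-05), and its part in these differences was not tested.

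Shares within a library show how these changes altered the mix of transcripts among the members. Each gene's CPM per kb was divided by the sum over the 7 α members or over the 3 β members. These shares are descriptions without a test, and they depend on the gene lengths used. Other integrin subunit genes are not in the sums, so no share is of all α or all β transcripts. In untreated si-NC cells Itga5 held 60.6% ± 0.67 (SD, n = 3) of the α sum and Itgav 30.0% ± 0.97. The 3 collagen receptor genes together held 4.29% ± 0.25 and Itga3 4.10% ± 0.21. Itgb1 held 73.7% ± 1.3 of the β sum, Itgb5 22.9% ± 1.5 and Itgb3 3.41% ± 0.22.

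With si-IAMP-1 in untreated cells the share of Itgb1 in the β sum was 78.0% ± 0.28, and with si-IAMP-2 it was 57.4% ± 0.44, while that of Itgb5 went to 37.6% ± 0.66. Itgb1 stood at 2.48 ± 0.059 times the α sum in si-NC, 2.97 ± 0.034 times with si-IAMP-1 and 1.42 ± 0.051 times with si-IAMP-2, with no overlap between groups. The α sum itself was 174 ± 6.6 CPM per kb in si-NC and 175 ± 5.9 with si-IAMP-2, and these overlapped. In TGF-β si-NC cells Itga11 held 22.2% ± 0.91 of the α sum, against 1.99% ± 0.14 in untreated cells, and Itgb5 held 61.1% ± 0.96 of the β sum. The share of Itga11 was 18.4% ± 1.1 with si-IAMP-1 and 15.2% ± 0.57 with si-IAMP-2. In hearts Itga5 held 71.8% ± 2.8 (Het) and 72.5% ± 3.8 (KO) of the α sum, and Itgb1 70.9% ± 1.0 and 71.0% ± 1.6 of the β sum.

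**Figure D4:**
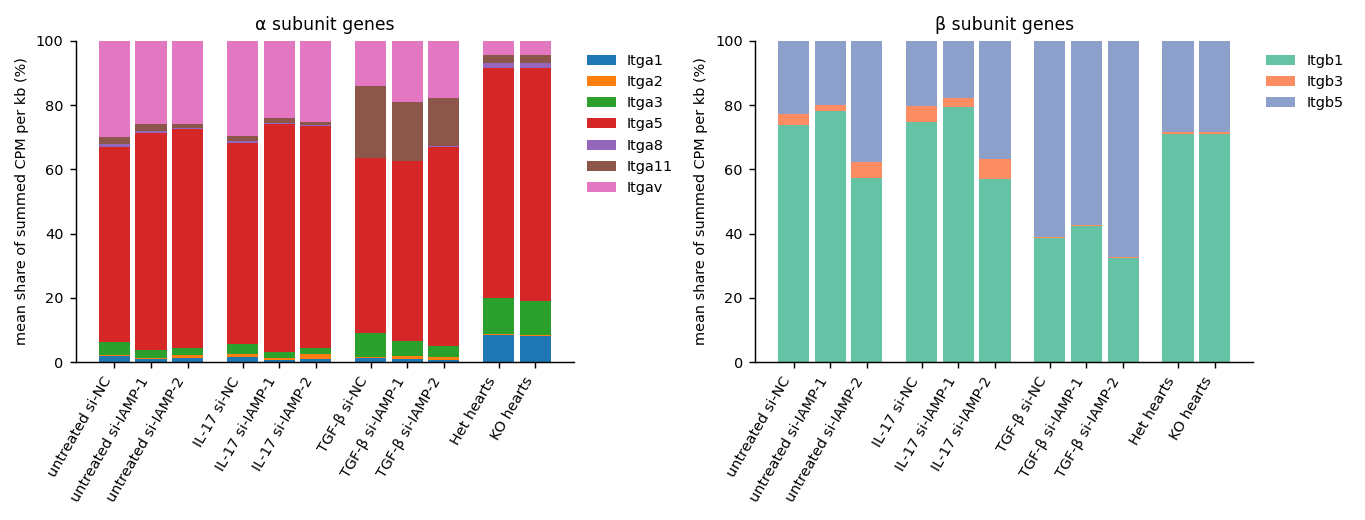
Mean share of each α and β member in the summed CPM per kilobase of the members of its class, by group (3 libraries per fibroblast group, 4 hearts per genotype), as bars stacked to 100%. Other integrin subunit genes are not in the sums. Itga5 forms most of the α bars, Itga11 is large in TGF-β cells only, and the Itgb1 share is lowest in TGF-β cells and lower with si-IAMP-2 than with si-NC in each table.

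Genes that work with these receptors were read from 3 lists. Of 17 other integrin subunit genes, 15 were tested in untreated cells, of which 2 were higher and 3 lower with si-IAMP-1 (19.5% and 20.4% of all genes) and 4 higher and 4 lower with si-IAMP-2 (24.4% and 25%). The median log2 fold change was -0.28 and 0.08, against -0.02 over all genes in both comparisons. Between TGF-β and untreated si-NC cells, 3 of 15 were higher and 8 lower (median -0.92; 29.3% and 28% of all genes). By the rule for naming, Itgal, a leukocyte integrin gene, fell with both in untreated cells, from 48 to 76 estimated counts per library to 6 to 41 and 17 to 24, around the floor of 18. In IL-17 cells Itga10, another collagen receptor gene, fell 1.56-fold and 2.21-fold. The rule used 2-fold in untreated cells and 1.5-fold in IL-17 and TGF-β cells. Being named in IL-17 cells therefore does not mark a change as particular to them. Itgb8 is named for its size after its values were seen. Its product pairs only with that of Itgav, and it stood at 17.7 to 20.5 CPM in untreated si-NC, 14.2 to 15.5 CPM with si-IAMP-1 and 66.1 to 69.2 CPM with si-IAMP-2, 3.56-fold higher than si-NC (edgeR adjusted p = 2.29e-13).

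Of 28 genes of the adhesion machinery, which links integrin tails to actin, 27 were tested in untreated cells. With si-IAMP-1, 10 were higher and 11 lower (median log2 fold change 0.02), and with si-IAMP-2, 6 were higher and 14 lower (median -0.14), beside the same shares of all genes, 19.5% and 20.4%, then 24.4% and 25%. In TGF-β cells, with 28 tested, 1 was higher and 11 lower with si-IAMP-1 (11.7% and 11.4% of all genes), and 2 higher and 15 lower with si-IAMP-2 (15.1% and 14.8%). Between TGF-β and untreated si-NC cells, 12 were higher and 16 lower (median -0.28; 29.3% and 28% of all genes). By the rule, Fermt2 and Tes are named in IL-17 cells, where its threshold was lower than in untreated cells. In untreated cells the log2 fold changes of this list ran from -0.84 to 0.68 with si-IAMP-1. With si-IAMP-2 they ran from -0.90 to 0.62. Fermt2, or kindlin-2, which binds β tails and helps to activate integrins, fell from 420 to 431 CPM in si-NC to 219 to 231 CPM with si-IAMP-1 and 226 to 245 CPM with si-IAMP-2, 1.90-fold and 1.85-fold (edgeR adjusted p = 3.44e-13 and 1.89e-13). Tes, a LIM protein of focal adhesions, rose from 35.4 to 36.8 CPM to 58.7 to 62.8 and 51.9 to 60.3 CPM.

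Of 23 genes for extracellular ligands, 22 were tested in untreated cells. With si-IAMP-1, 15 were higher and 6 lower (median log2 fold change 0.32; 19.5% and 20.4% of all genes), and with si-IAMP-2, 6 were higher and 13 lower (median -0.15; 24.4% and 25%). In TGF-β cells, with 23 tested, 3 were higher and 6 lower with si-IAMP-1 (median -0.01; 11.7% and 11.4% of all genes), and 7 were higher and 3 lower with si-IAMP-2 (median 0.04; 15.1% and 14.8%). Between TGF-β and untreated si-NC cells, 4 were higher and 16 lower (median -0.44; 29.3% and 28% of all genes). Col3a1, a fibrillar collagen gene, is named by the rule in IL-17 cells, where it rose from 2760 to 2823 CPM to 5338 to 5657 CPM with si-IAMP-1 and 8157 to 8632 CPM with si-IAMP-2, 1.94-fold and 2.95-fold (edgeR adjusted p = 9.06e-14 and 1.48e-16). In untreated cells, under the higher threshold, the log2 fold changes of this list ran from -0.39 to 0.97 with si-IAMP-1. With si-IAMP-2 they ran from -1.31 to 1.45. Fn1 encodes fibronectin, the ligand of the Itga5 and Itgb1 products, and is named after its values were seen. In untreated cells it was 1.39-fold higher with si-IAMP-1 (edgeR adjusted p = 1.04e-08) and 2.48-fold lower with si-IAMP-2 (edgeR adjusted p = 2.24e-14), the same pair of directions as Itgb1. This pair is not particular to Fn1, since 15 of the 22 ligand genes were higher with si-IAMP-1 and 13 lower with si-IAMP-2.

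The hearts asked whether loss of IAMP in the animal went with other integrin levels. Of the 10 members 9 were tested and none was called, as was true of every gene, with 0% of 16675 higher, 0% lower and 0% past the fold threshold in edgeR. An unadjusted p below 0.05 was found for 601 of the 16675 genes, 0 of them members. That is a smaller share than the 0.05 that chance alone would give. DESeq2 called 2 genes, neither of them a member. Itgb1 had 219, 224, 235 and 231 CPM in Het and 235, 237, 221 and 245 CPM in KO hearts, which overlapped (log2 fold change 0.05 ± 0.045). Itgb5 at 76.4 to 82.3 and 79.2 to 84.6 CPM and Itga5 at 66.3 to 105 and 69.1 to 98.8 CPM overlapped too. The log2 fold change of Itga5 was 0.01 ± 0.15.

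The remaining members behaved alike. Itga1 stood at 34.8 to 41.8 CPM in Het and 34.3 to 36.8 CPM in KO, Itga3 at 13.5 to 16.4 and 13.2 to 15.5 CPM, and Itgav at 9.82 to 12.1 and 10.6 to 12.5 CPM. Itgb3, Itga8 and Itga11 were each under 5 CPM in every heart. The largest log2 fold change of a tested member was that of Itgb3, 0.20 ± 0.16. Itga2 was read at 6 to 11 counts per heart and fell under the filter on low counts. Whole hearts hold many cell types, with cardiomyocyte markers at 35073 to 38637 CPM and fibroblast markers at 434 to 657 CPM, and a change in fibroblasts alone could not be seen separately. A missed test does not show that the genotypes were alike, and the standard error for Itga8, 0.38, was wide beside its log2 fold change of 0.03.

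**Figure D5:**
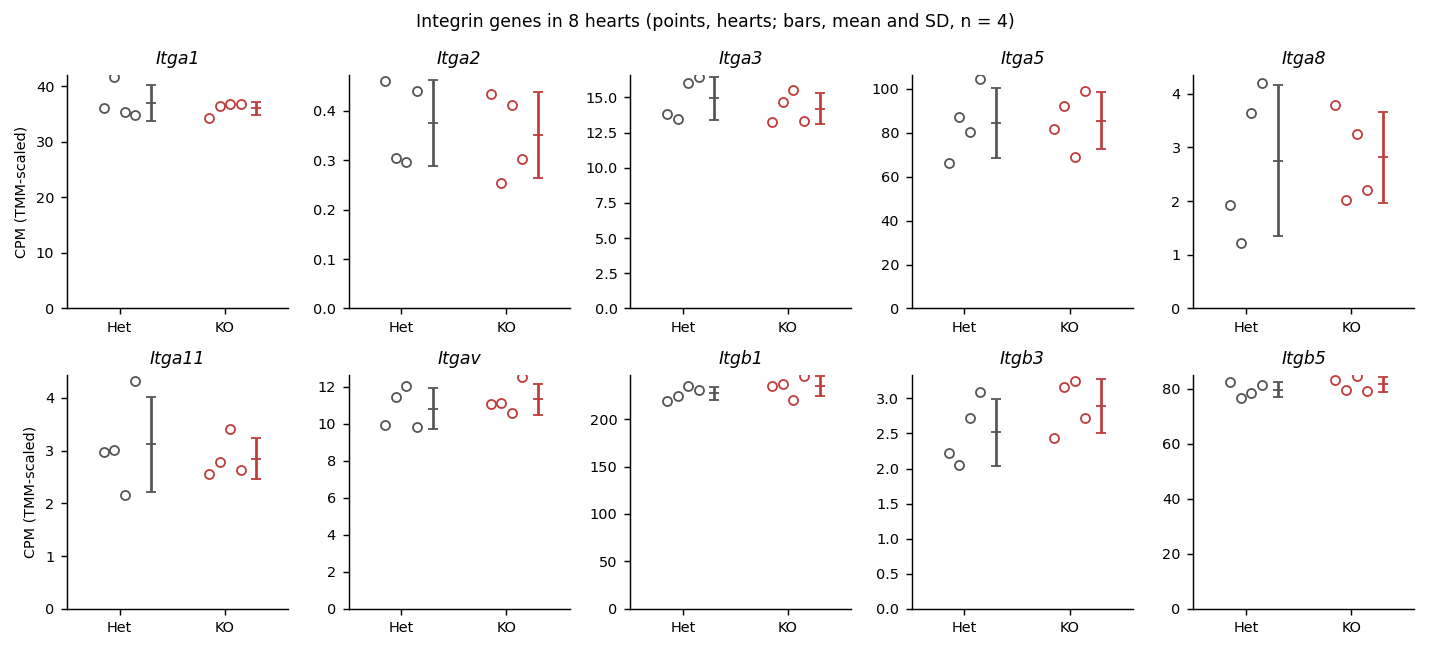
TMM-scaled CPM of each integrin gene in 4 Het and 4 KO hearts, on linear axes from 0, with points for hearts and bars for mean and SD. Het and KO overlap for all 10 genes.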

How the data were processed

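Transcripts were measured by RNA-Seq of oligo(dT)-selected RNA in 27 fibroblast and 8 heart libraries. According to the labels and the submitters' processing notes, the authors trimmed reads with Cutadapt 3.7, aligned them to GRCm38 with HISAT2 2.2.1 and quantified genes with StringTie 2.1.4. The authors deposited whole-number estimated counts per gene for fibroblasts (about 6 per read pair) and raw counts per gene for hearts. The annotation release, strand setting and step to whole numbers are not given in the sources used here. Heart columns name the genotype and an animal number that no label carries, so they were mapped to genotypes and not to the numbered heart samples.

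Groups were compared with edgeR 4.0.16 (R 4.3.3), with a robust quasi-likelihood fit, TMM scaling, filterByExpr, and Benjamini-Hochberg adjustment over all genes tested. Each table was fitted alone, and stimuli and differences of siRNA effects were fitted over 18 libraries. The study used DESeq2 (1.42.0 here), which was an alternative, beside other scaling, filters, thresholds, a replicate block and leaving out each library. Scripts were tested on simulated data. Levels are CPM from 1 TMM scaling of the 27 fibroblast libraries, and of the 8 hearts separately, per kilobase of merged exons (GENCODE vM21) where genes are compared. Depth is 104139670 to 119232309 estimated counts or 23497027 to 23857313 counts, and the floor is 3 read pairs.

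The members and lists were chosen with earlier results of these data known. The 10 members are named throughout, and from the other lists those past both thresholds in 1 direction with both siRNAs of a table, at most 3 per list and table. Itgb8 and Fn1 are named outside this rule, after their values were seen.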

Additional observations from a re-analysis of the deposited data

Results flagged for a closer look

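For 13 member and siRNA pairs, the siRNA effect differed between TGF-β and untreated cells by the test of the difference itself (edgeR adjusted p up to 0.05 over all genes). Values are log2 fold change against si-NC in TGF-β cells minus that in untreated cells.

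With si-IAMP-1, the effect was shifted down for Itga11 (-0.89), Itga5 (-0.59), Itgb1 (-0.40), Itgb5 (-0.36) and Itga3 (-0.35), and up for Itga8 (0.57), Itgb3 (0.49) and Itga1 (0.45). Itga11 had opposite signs in the 2 tables, a rise of 0.49 in untreated and a fall of 0.39 in TGF-β cells. For Itgb3 the fall of 0.23 in untreated cells stood against a rise of 0.27.

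With si-IAMP-2, the effect was shifted up for Itga8 (1.75), Itgav (0.46) and Itgb1 (0.44), and down for Itga2 (-1.06) and Itgb5 (-0.24). Itgav fell by 0.22 in untreated and rose by 0.26 in TGF-β cells. All 13 share the si-NC libraries of their tables, stimulus and table cannot be told apart, and the smaller knockdown of IAMP in TGF-β cells goes with them, its part not tested.

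In KO hearts, 1 heart lay apart for Itga1, at 34.3 CPM against 36.4 to 36.8 CPM in the other 3. The gap was 0.834 of the range in the group, above Dixon's 95% value for 4 samples. All 10 members were searched in Het and in KO hearts, and by chance about 1 in 20 groups of normal values would pass.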

How the results depend on the processing

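Of 103 called values of members, none changed direction in any setting. The number that stayed called was 103 with DESeq2, with at least 10 counts in every library and with counts divided by 6, 102 with RLE size factors and without a filter, and 87 of 90 with only the 2 groups compared. Leaving out 1 library kept 1137 of 1188. Of 56 values not called, 5 were called with DESeq2 and 4 with at least 10 counts in every library, and of 47 in fibroblasts 4 with counts divided by 6. Among these were Itga1 with si-IAMP-1 in TGF-β cells (adjusted p = 0.0443, 0.0406 and 0.0289 in the 3 settings) and Itgav between IL-17 and untreated cells (0.0288, 0.0376 and 0.0361).

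The fold threshold set the counts past it. With 1.5-fold in place of 2-fold in untreated cells, 2374 genes and 3 members passed with si-IAMP-1 (936 and 0 before) and 4156 genes and 6 members with si-IAMP-2 (2095 and 3). With 2-fold in place of 1.5-fold, IL-17 cells gave 1158 genes and 0 members with si-IAMP-1 (2697 and 4) and 2249 genes and 2 members with si-IAMP-2 (4323 and 6). TGF-β cells gave 273 genes and 0 members (867 and 1) and 587 genes and 1 member (1494 and 3). For the stimuli 296 genes (653) and 4634 genes (7514) passed with IL-17 and TGF-β. Differences of effects passed for 40 genes (95) and 35 genes (103) with IL-17 and for 508 genes (1207) and 1095 genes (2496) with TGF-β, with 0 members in place of 2 for si-IAMP-1 and TGF-β. That count was 1 with DESeq2, with RLE size factors, with at least 10 counts in every library and with counts divided by 6, and 1 to 3 when 1 library was left out. In hearts DESeq2 called 2 genes, and edgeR 0 to 1 when 1 heart was left out. In TGF-β cells, 1 to 2 members passed with si-IAMP-1 and 3 to 4 with si-IAMP-2 when 1 library was left out.

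Values near 0 changed sign. The si-IAMP-1 effect in IL-17 minus untreated cells became -0.00226 (DESeq2) and -0.00225 (RLE) for Itgb1, and -0.000524 and -0.000528 for Itgb5. When 1 library was left out, it ranged from -0.0139 to 0.0515 for Itga11, -0.0286 to 0.105 for Itga3, -0.0644 to 0.143 for Itga8, -0.0215 to 0.0626 for Itgav, -0.0206 to 0.0233 for Itgb1, -0.0506 to 0.0407 for Itgb3 and -0.0452 to 0.0543 for Itgb5. For si-IAMP-2 it ranged from -0.0830 to 0.0204 for Itga1, -0.0492 to 0.0643 for Itga11 and -0.0427 to 0.00116 for Itgb1, and in TGF-β minus untreated cells from -0.0935 to 0.0349 for Itga11. Within tables, Itgb3 with si-IAMP-2 in IL-17 cells ranged from -0.0446 to 0.0130 and Itgb5 with si-IAMP-1 in TGF-β cells from -0.0626 to 0.0114. Between the siRNAs in TGF-β cells, Itga8 ranged from -0.175 to 0.00865 and Itgb3 from -0.0813 to 0.0255. In hearts the ranges were -0.0665 to 0.0267 for Itga1, -0.271 to 0.0710 for Itga11, -0.0859 to 0.132 for Itga5 and -0.213 to 0.310 for Itga8. The cause was not tested.

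Whether the replicate numbers pair the samples was not settled, and the main fits used no pairing. Same-numbered libraries correlated over 0.1 in 3 of 9 pairs of untreated cells and in 2 of 9 each of IL-17 and TGF-β cells. Libraries of unlike number were not compared, so these values cannot decide it. With a replicate block, edgeR lost the calls of Itga1 (log2 fold change -0.11, adjusted p = 0.0522) and Itgb5 (0.08, adjusted p = 0.0625) between the siRNAs in IL-17 cells, and no other call of a member changed. No paired analysis was possible for hearts because their columns carry animal numbers that no label ties to a replicate number.

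Depth limits Itga8 in TGF-β cells, at 145 to 231 estimated counts, and Itga2 in hearts, at 6 to 11 counts. Intervals cover spread between libraries only. Stimulus and table were not separable, and hearts mix cell types.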
